A study of Mus musculus with 18 samples.

Results

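The 8 genes described here are Sox2, Sox4, Sox9 and Sox11 of the SOX family, Klf4 and Klf5 of the KLF family, and Lin28b and Hmga2, out of 55291 genes in the table. They were chosen by name, as developmental regulators whose levels in these tumours were already known, so their levels by tumour type are given as a description with no test. Transcripts were measured by bulk RNA sequencing of subcutaneous tumours grown from CT26 cells (colon carcinoma, BALB/c origin), from CT26-NY-ESO-1 cells (CT26NYESO1 below, a line whose name carries the human antigen NY-ESO-1) or from LL/2 cells (LL2 below, Lewis lung carcinoma, C57BL/6 origin). The hosts were BALB/cJ or C57BL/6J mice, of unstated sex and age. Where 2 tumour types differ in host strain, strain and cell line cannot be told apart, as host cells also add to the RNA. Each tumour type had a group given OK-432, a penicillin-treated, lyophilised preparation of Streptococcus pyogenes, into the tumour for 24 hours (OK432) and a group without it (Ctrl). Tumours were collected on day 14, each of the 6 groups had 3 libraries, and what the Ctrl tumours were injected with is unstated. The labels do not say that the 3 libraries came from separate mice, so p-values rest on a spread between libraries that may be technical in part. How CT26-NY-ESO-1 was derived, and whether it is 1 clone, was likewise not given in the sources used here.

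SOX proteins are transcription factors that bind DNA through an HMG box and set cell identity in the embryo. Sox2 maintains pluripotent cells, neural progenitors and foregut epithelium. Sox9 drives cartilage formation and marks epithelial progenitors, and Sox4 and Sox11 act together in neural and mesenchymal progenitors. KLF proteins are zinc-finger transcription factors. Klf4, with Oct4, Sox2 and Myc, reprograms fibroblasts into pluripotent cells, and Klf5 supports proliferating cells of the gut epithelium. Lin28b and Hmga2 are not sequence-specific transcription factors. Lin28b is an RNA-binding protein that blocks maturation of the let-7 microRNAs, and Hmga2 is an architectural protein of chromatin and a classic target of let-7.

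Values are TPM, a measure of transcript abundance scaled for gene length whose values sum to 1000000 in every library, so depth is unknown and a value listed at 0 may be a failed estimate. Each library listed 24036 to 25858 genes above 0. Of the defining markers of the tissues of origin, Epcam (an epithelial adhesion molecule) had group means of at most 0.172 TPM, Cdx2 (an intestinal transcription factor) of at most 1.05 TPM, and Nkx2-1 (a lung transcription factor) was listed at 0 in all 18 libraries. Other markers were present at low levels. The 10 intestinal markers summed to 9.78 to 12.4 TPM in CT26 Ctrl, 16.8 to 30.3 in CT26NYESO1 Ctrl and 9.33 to 10.8 in LL2 Ctrl, led by Lgals4 and, in CT26NYESO1, Krt20. The 10 airway and lung markers summed to 1.02 to 1.65, 7.86 to 8.5 and 5.66 to 5.99 TPM, mostly Foxa1 in CT26NYESO1 and Foxa2 in LL2. Keratins Krt8 and Krt18 of simple epithelium were at 204 ± 57.4 and 272 ± 40.3 TPM in LL2 Ctrl (SD, n = 3) and at 0.149 ± 0.0434 and 0.203 ± 0.179 TPM in CT26 Ctrl. In CT26NYESO1 Ctrl they were at 0.0390 ± 0.0676 and 12.2 ± 2.86 TPM. The mean profiles of untreated CT26 and CT26NYESO1 tumours correlated at r = 0.92 over the 16816 tested genes, against 0.884 for CT26 and LL2 and 0.9 for CT26NYESO1 and LL2, which is a description across genes. In bulk tumour RNA, fewer cells of a type and less RNA per cell cannot be told apart.

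Sox2 was detected at a substantial level in CT26NYESO1 tumours and near 0 in the other two types. The gene has 1 exon and lies at chr3:34650405-34652461 on the plus strand (mm10, GENCODE M21). The CT26NYESO1 Ctrl libraries held 10.7, 16.1 and 19.5 TPM of Sox2 (mean 15.4 ± 4.42, SD, n = 3). The CT26NYESO1 OK432 libraries held 12.7, 18.01 and 19.4 TPM. In CT26 the values were 0, 0.113 and 0.241 TPM in Ctrl and 0.498, 0 and 0 TPM in OK432. Every CT26NYESO1 library was therefore above every library of the other types, while CT26 and LL2 overlapped at the bottom of the scale. Sox2 was listed at 0 in the 3 LL2 Ctrl libraries and at 0.0364, 0.0046 and 0.0311 TPM in LL2 OK432.

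The long non-coding RNA Sox2ot runs over Sox2 on the same strand, and it too was highest in CT26NYESO1 and near 0 in the other types. Sox2ot was at 1.15 ± 0.222 TPM in CT26NYESO1 Ctrl, at 0.0129 ± 0.0223 TPM in CT26 Ctrl and listed at 0 in LL2 Ctrl (SD, n = 3). As both transcripts come from one strand, reads in the shared stretch cannot be assigned to one or the other by strand. The nearest tested gene before Sox2, Dnajc19 (a mitochondrial import protein), had 75.2 TPM in CT26 Ctrl, 45.3 in CT26NYESO1 Ctrl and 43.1 in LL2 Ctrl. Fxr1, an RNA-binding protein farther from Sox2 on the same side and so not the nearest tested gene, had 164, 71.5 and 116 TPM in the same groups. Neither coding neighbour had its highest level in CT26NYESO1. After Sox2 the nearest tested gene was the unconfirmed gene model Gm43078, at 0.6, 1.8 and 0.0112 TPM.

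The genes whose pattern over the 18 libraries was most like that of Sox2 were Irx1 and Rarres1 (both Pearson r = 0.9943 of log2(TPM + 1)), then Gm13147 (0.9936), Abcb1b (0.9933) and Osbpl6 (0.9928), among 11552 genes tested with a mean of at least 5 TPM. These r values rest on the gap between CT26NYESO1 and the other types, and libraries of a type share their origin, so no p is given. Irx1, a homeobox transcription factor, had 16.9 TPM in CT26NYESO1 Ctrl, 0.183 in CT26 Ctrl and 0.0621 in LL2 Ctrl. Abcb1b, a drug efflux pump, differed from the other four in having a level outside CT26NYESO1: 31.2 TPM in CT26 Ctrl and 23.9 in LL2 Ctrl, against 158 in CT26NYESO1 Ctrl.

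**Figure D1:**
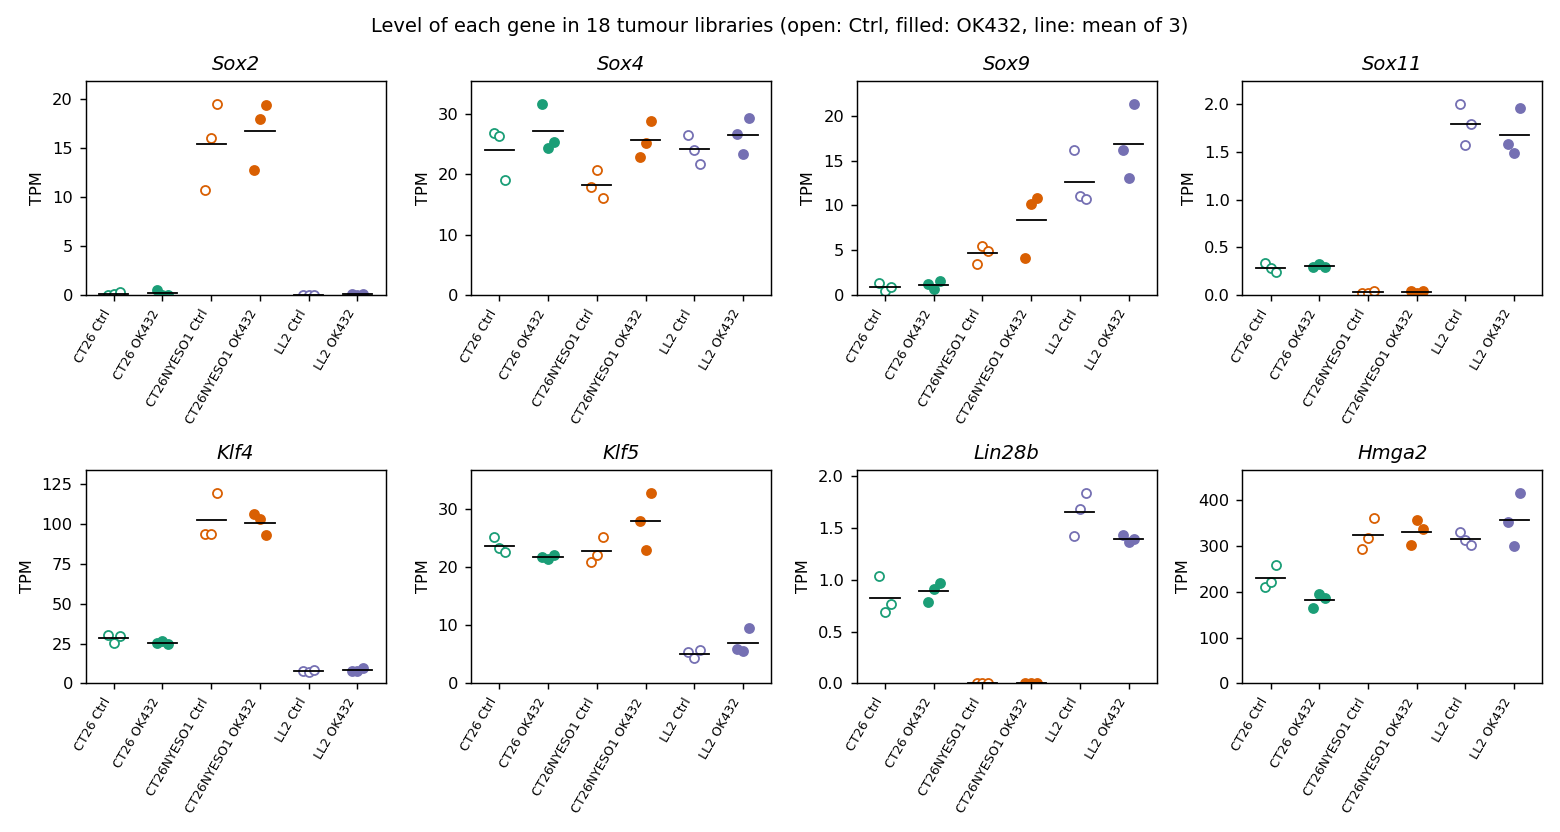
TPM of each of the 8 genes (y axis, linear, from 0) in each of the 18 libraries by group (x axis); open points are Ctrl, filled points OK432, and the line is the mean of 3 libraries. Sox2 sits between 10.7 and 19.5 TPM in CT26NYESO1 and at most at 0.498 elsewhere, while Lin28b is listed at 0 in CT26NYESO1 and Sox4 overlaps across the tumour types.

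Sox4 was present at 16.1 to 31.7 TPM in every library, with no order of the 3 tumour types over all libraries. It has 1 exon, at chr13:28948919-28953713 on the minus strand. The 3 libraries held 26.8, 26.4 and 19.0 TPM in CT26 Ctrl, 17.9, 20.8 and 16.1 TPM in CT26NYESO1 Ctrl, and 26.5, 24.1 and 21.8 TPM in LL2 Ctrl. With OK-432 they held 31.7, 24.4 and 25.4 TPM in CT26, 22.9, 25.2 and 28.9 TPM in CT26NYESO1, and 26.7, 23.5 and 29.3 TPM in LL2. Over 6 libraries per type the means were 25.6, 22 and 25.3 TPM for CT26, CT26NYESO1 and LL2, and the 3 ranges overlapped. Among untreated tumours alone, all LL2 libraries were above all CT26NYESO1 libraries, and CT26 overlapped both. The genes most like Sox4 were Acp5, a phosphatase of osteoclasts and macrophages (r = 0.8115), and Cxcl5, a chemokine that attracts neutrophils (r = 0.7761).

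Sox9 was highest in LL2 and lowest in CT26. It lies at chr11:112782224-112787760 on the plus strand and has 3 exons. In LL2 the libraries held 16.2, 11.0 and 10.7 TPM (Ctrl) and 16.2, 13.1 and 21.3 TPM (OK432). In CT26NYESO1 they held 3.42, 5.48 and 4.93 TPM (Ctrl) and 4.15, 10.2 and 10.8 TPM (OK432). CT26 libraries held 1.30, 0.465 and 0.919 TPM (Ctrl) and 1.18, 0.608 and 1.59 TPM (OK432). Over 6 libraries the CT26NYESO1 mean, 6.49 ± 3.17 TPM, was 6.42 times that of CT26, 1.01 ± 0.428 TPM, with no overlap (SD, n = 6). LL2, at 14.8 ± 4.01 TPM, overlapped CT26NYESO1 by 1 library, at 10.7 TPM against a CT26NYESO1 maximum of 10.8. Il33, an alarmin cytokine, followed Sox9 most closely (r = 0.9692), with 69.1 TPM in LL2 Ctrl, 16.4 in CT26NYESO1 Ctrl and 3.19 in CT26 Ctrl, and was followed by Rap1gap (r = 0.968).

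Sox11 was a low transcript in all 3 types and was ordered LL2, CT26, CT26NYESO1. It has 1 exon, at chr12:27334264-27342574 on the minus strand. LL2 libraries held 2.00, 1.57 and 1.79 TPM (Ctrl) and 1.58, 1.49 and 1.96 TPM (OK432). CT26 libraries held 0.329, 0.277 and 0.240 TPM (Ctrl) and 0.296, 0.324 and 0.288 TPM (OK432). CT26NYESO1 libraries held 0.0193, 0.0206 and 0.0358 TPM (Ctrl) and 0.0399, 0.0149 and 0.0428 TPM (OK432). No 2 types overlapped: the LL2 mean of 1.73 TPM was 5.93 times the CT26 mean of 0.292 TPM. Sox4, of the same subgroup of the SOX family, showed no such separation over the 6 libraries of each type. Dennd2a (r = 0.9929) and Fnbp1l (r = 0.9919) were most like Sox11, with 78.5 and 53.2 TPM in LL2 Ctrl.

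Klf4 separated the 3 tumour types without overlap. It lies at chr4:55527143-55532466 on the minus strand and has 5 exons. CT26NYESO1 libraries held 93.7, 93.8 and 119.8 TPM (Ctrl) and 106.3, 103.5 and 93.3 TPM (OK432). CT26 libraries held 30.2, 25.6 and 29.9 TPM (Ctrl) and 25.3, 26.8 and 25.0 TPM (OK432). LL2 libraries held 7.61, 7.44 and 8.22 TPM (Ctrl) and 8.04, 7.66 and 9.58 TPM (OK432). The mean over 6 libraries was 102 TPM in CT26NYESO1, 3.75 times the 27.1 TPM of CT26, which was in turn 3.35 times the 8.09 TPM of LL2. Car5b, a mitochondrial carbonic anhydrase (r = 0.9973), and Sertad1 (r = 0.9945) had the patterns most like Klf4. Rad23b, a DNA repair protein, is the nearest tested gene after Klf4 in its direction of transcription. It did not share the order of Klf4, with 232, 111 and 226 TPM in CT26, CT26NYESO1 and LL2 Ctrl.

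Klf5 was shared by the 2 CT26-named tumours and lower in LL2. It lies at chr14:99298691-99315036 on the plus strand and has 4 exons. CT26 libraries held 25.1, 23.3 and 22.6 TPM (Ctrl) and 21.7, 21.3 and 22.2 TPM (OK432). CT26NYESO1 libraries held 20.9, 22.1 and 25.2 TPM (Ctrl) and 27.9, 22.9 and 32.8 TPM (OK432). LL2 libraries held 5.37, 4.37 and 5.68 TPM (Ctrl) and 5.96, 5.52 and 9.61 TPM (OK432). The mean of CT26, 22.7 TPM, overlapped that of CT26NYESO1, 25.3 TPM, and was 3.73 times that of LL2, 6.08 TPM. The sign of the small Klf5 difference between untreated CT26NYESO1 and CT26 turned with the scaling, from -0.06 on the log2 scale as deposited to 0.15 and 0.19 after the 2 rescalings tried. Timp1, an inhibitor of matrix metalloproteinases (r = 0.9863), and Crip2 (r = 0.9838) were most like Klf5.

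Lin28b was present at about 1 TPM in CT26 and LL2 and listed at 0 in CT26NYESO1. It lies at chr10:45376620-45486395 on the minus strand and has 5 exons. LL2 libraries held 1.42, 1.68 and 1.84 TPM (Ctrl) and 1.43, 1.36 and 1.39 TPM (OK432). CT26 libraries held 1.03, 0.685 and 0.761 TPM (Ctrl) and 0.788, 0.914 and 0.968 TPM (OK432). All 6 CT26NYESO1 libraries were listed at 0, so no fold is given against them, and the mean of LL2, 1.52 TPM, was 1.77 times that of CT26, 0.858 TPM, with no overlap. Rab6b, a Golgi GTPase (r = 0.9903), shared this pattern, with 8.06 TPM in CT26 Ctrl, 0.0323 in CT26NYESO1 Ctrl and 25.5 in LL2 Ctrl. The Hippo pathway factor Tead1 followed (r = 0.9888).

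On each side of Lin28b, untreated tumours differed in more than Lin28b. Popdc3, a membrane protein of muscle, is the nearest tested gene after Lin28b in its direction of transcription. Popdc3 had 11.0 TPM in CT26 Ctrl, 0.377 in CT26NYESO1 Ctrl and 0.676 in LL2 Ctrl. The long non-coding RNA D030045P18Rik, 321.2 kb away on the other side and not the nearest tested gene there, had 24.0, 0.0187 and 0.0104 TPM. These 2 transcripts were high in CT26 only among the 3 untreated groups, an order unlike that of Lin28b. Hace1, a ubiquitin ligase and the nearest tested gene before Lin28b, varied little, with 16.0, 14.0 and 13.0 TPM. The peptidase Prep, farther from Lin28b than Popdc3 and so not the nearest tested gene, had 24.0, 19.9 and 24.2 TPM.

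Hmga2 was the most abundant of the 8 genes in every group. It lies at chr10:120361275-120476469 on the minus strand and has 6 exons. LL2 libraries held 331, 313 and 303 TPM (Ctrl) and 351, 299.9 and 417 TPM (OK432). CT26NYESO1 libraries held 293, 317 and 360.4 TPM (Ctrl) and 301, 356 and 336 TPM (OK432). CT26 libraries held 211, 222 and 259 TPM (Ctrl) and 164, 195 and 186 TPM (OK432). LL2 (mean 336 TPM) and CT26NYESO1 (327 TPM) overlapped, and CT26NYESO1 was 1.59 times CT26 (206 TPM) with no overlap. The direction of the small difference between untreated LL2 and CT26NYESO1 (-0.03 on the log2 scale) turned under 1 of the 2 rescalings (0.07). The antisense transcript 1700006J14Rik and the microRNA gene Mir763 overlap Hmga2 and reached 4.29 and 25.6 TPM. The genes most like Hmga2 were B3galnt1 (r = 0.9371) and Ccdc85b (r = 0.9323).

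Lin28b and Hmga2 sit on opposite sides of the let-7 pathway, so the sequences that join them are shown. Of the 10 let-7 5p entries in RefSeq (GRCm38.p6), 9 share the seed, bases 2 to 8, printed in capitals below for 3 of them that differ outside it.
mmu-let-7a-5p: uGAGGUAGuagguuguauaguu
mmu-let-7b-5p: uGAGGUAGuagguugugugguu
mmu-let-7g-5p: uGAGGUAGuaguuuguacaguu
The complement of this seed in DNA letters, CTACCTC, was searched on the sense strand of the longest annotated 3′ UTR of each gene. Hmga2 and Lin28b held 4 matches each, and the other 6 genes held 0. Over all 20919 genes with a 3′ UTR, 9.06% held at least 1 match. Among 3′ UTRs within 20% of the length of that of Hmga2 (3014 bases) the share was 15.5%, and 0.134% held as many as 4. For Lin28b (4445 bases) these shares were 24.2% and 0.236%. The 4 windows of 22 bases in Hmga2, all on chromosome 10, minus strand, with the match in capitals, were as follows (mm10, GENCODE M21 transcripts).
Hmga2 chr10:120364224-120364245: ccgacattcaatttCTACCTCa
Hmga2 chr10:120362987-120363008: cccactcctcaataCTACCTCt
Hmga2 chr10:120362549-120362570: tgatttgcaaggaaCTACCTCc
Hmga2 chr10:120361691-120361712: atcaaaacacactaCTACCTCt
The 4 windows in Lin28b lie on the same chromosome and strand.
Lin28b chr10:45381022-45381043: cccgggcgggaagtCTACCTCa
Lin28b chr10:45378648-45378669: atacttgttagtaaCTACCTCt
Lin28b chr10:45378476-45378497: tttacagcacatggCTACCTCc
Lin28b chr10:45377060-45377081: aatgatggcaccgaCTACCTCt
A match describes letters and is not evidence of a working site, and mature let-7 was not measured in these poly(A) libraries. Side by side, the 2 genes did not share one order: Hmga2 stood at 327 TPM in CT26NYESO1, where Lin28b was listed at 0, and at 206 TPM in CT26, where Lin28b stood at 0.858 TPM.

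Between untreated tumour types, libraries did not overlap for 6 of the 8 genes in LL2 against CT26 (72.1% of all tested genes did not overlap in that comparison), for 6 of 8 in CT26NYESO1 against CT26 (67.5%) and for 7 of 8 in LL2 against CT26NYESO1 (69.9%). These shares are near those of all genes, and the 8 were chosen with such differences known, so nothing is read from the counts. All 8 passed the filter of 1 TPM in at least 3 libraries. Sox2 passed through CT26NYESO1 alone and Sox11 through LL2 alone. Lin28b also passed through LL2, with replicate 1 of CT26 Ctrl at 1.03 TPM.

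The rest of the families and pathways was followed through 8 gene lists that hold none of the 8 genes, and differences between untreated tumour types were tested with limma on log2(TPM + 1), adjusted over all 16816 tested genes. Of 61 tested list genes, 24 were higher and 24 lower in LL2 than in CT26 (78.7% called, against 68.8% of all genes, of which 29.1% were higher and 39.7% lower). In CT26NYESO1 against CT26, 14 were higher and 30 lower (72.1%, against 64.9% of all genes, 21.1% higher and 43.9% lower), and in LL2 against CT26NYESO1, 27 were higher and 14 lower (67.2%, against 66.3% of all genes, 38.8% higher and 27.5% lower). Of the 61, 5 reached 1 TPM in only 1 tumour type (Sox5, Trim71, Dppa4 and Ncam1 in LL2, Chad in CT26). These 5 passed the filter through the type where they are high and had to differ, so their levels are given below with no test, and the counts of their lists include them. The balance of directions depends on scaling. Over all genes called in CT26NYESO1 against CT26, 32.5% were higher as deposited, against 49.6% with median-of-ratios factors and 51.8% with quantile normalization. The list genes then split 22 higher and 27 lower, and 24 and 27. In LL2 against CT26 the share higher went from 42.2% to 49.8% and 55.3%, and the list genes split 28 and 22, and 28 and 20. Median-of-ratios rescaling moved a library's median gene by at most 0.149 on the log2 scale.

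Of the 15 other SOX genes listed, 6 were tested. In LL2 against CT26, 2 were higher and 4 lower, in CT26NYESO1 against CT26, 0 were higher and 5 lower, and in LL2 against CT26NYESO1, 5 were higher and 1 lower. Sox18, an endothelial transcription factor, had 29.4 TPM in CT26 Ctrl, 4.73 in CT26NYESO1 Ctrl and 7.38 in LL2 Ctrl, and was lower in LL2 than in CT26 by -1.88 ± 0.217 (log2 difference ± SE, limma adjusted p = 9.99e-07). Sox12, of the same subgroup as Sox4 and Sox11, had 2.50, 0.384 and 8.17 TPM and was higher in LL2 by 1.39 ± 0.105 (adjusted p = 3.78e-09). Its order was that of Sox11. Sox5, a partner of Sox9 in cartilage, had 1.82 TPM in LL2 Ctrl, 0.0819 in CT26 Ctrl and 0.122 in CT26NYESO1 Ctrl. Sox7 and Sox17, named after their values were seen, are endothelial relatives of Sox18 and were also lower outside CT26, at 7.12 and 7.68 TPM in CT26 Ctrl, 1.07 and 1.64 in CT26NYESO1 Ctrl and 2.21 and 3.08 in LL2 Ctrl. The summed level of 9 endothelial marker genes moved the same way, at 379 to 449 TPM in CT26 Ctrl, 65.4 to 93.2 in CT26NYESO1 Ctrl and 91.4 to 137 in LL2 Ctrl. Singly, 1 of the 9 was called higher and 8 lower in LL2 than in CT26. In CT26NYESO1 against CT26, 0 were called higher and 8 lower. The part of endothelial cells in the levels of these SOX genes was not tested.

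Of the 15 other KLF genes listed, 10 were tested. As deposited, 5 were higher and 3 lower in LL2 than in CT26, 4 higher and 2 lower in CT26NYESO1 than in CT26, and 2 higher and 3 lower in LL2 than in CT26NYESO1. With either rescaling the first 2 splits were 7 and 3, and 7 and 2. Klf8 had 12.2 TPM in CT26 Ctrl against 0.437 in CT26NYESO1 Ctrl and 0.753 in LL2 Ctrl. It reached 1 TPM in 6 CT26, 0 CT26NYESO1 and 2 LL2 libraries. Klf8 thus passed the filter only through CT26, where it is high, so no test is given for it, and the counts above include it. Klf2, a factor of quiescent endothelium and T cells, ran the other way, at 9.27, 17.4 and 30.8 TPM (1.64 ± 0.194, adjusted p = 1.37e-06). Klf13 was higher in LL2 than in CT26 by 0.65 ± 0.104 (adjusted p = 3.18e-05). None of these 3 repeated the order of Klf4, which was highest in CT26NYESO1 and lowest in LL2.

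The LIN28 and let-7 processing list had 9 tested genes of 10. In LL2 against CT26, 2 were higher and 1 lower, in CT26NYESO1 against CT26, 1 was higher and 4 lower, and in LL2 against CT26NYESO1, 5 were higher and 0 lower. Trim71, an RNA-binding ubiquitin ligase that is itself a let-7 target, had 1.08 TPM in LL2 Ctrl, 0.0182 in CT26 Ctrl and 0.182 in CT26NYESO1 Ctrl. Drosha, which cuts primary microRNAs, was higher in LL2 than in CT26 by 0.44 ± 0.086 (limma adjusted p = 0.00023). Dicer1, which cuts precursors, had 27.4 TPM in CT26 Ctrl, 15.3 in CT26NYESO1 Ctrl and 24.5 in LL2 Ctrl, and was lower in CT26NYESO1 than in CT26 by -0.80 ± 0.065 (adjusted p = 1.15e-08). Tut4, named after its values were seen, adds uridines to precursors held by LIN28 proteins and had 19.4, 7.85 and 22.3 TPM in the same order (CT26NYESO1 minus CT26 -1.21 ± 0.0889, adjusted p = 3.42e-09). The list's split in CT26NYESO1 against CT26 became 4 higher and 4 lower after median-of-ratios rescaling.

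Genes known as let-7 targets did not move as a block. Of 15 tested, 6 were higher and 6 lower in LL2 than in CT26, 3 higher and 7 lower in CT26NYESO1 than in CT26, and 7 higher and 2 lower in LL2 than in CT26NYESO1. Hmga1, the paralog of Hmga2, had 331, 1217 and 1139 TPM in CT26, CT26NYESO1 and LL2 Ctrl (LL2 minus CT26 1.78 ± 0.121, adjusted p = 1.4e-09). Its value is uncertain, since the near-identical copy Hmga1b had 223, 723 and 137 TPM and reads may have been split between them. The RNA-binding proteins Igf2bp3 and Igf2bp1 were both lower outside CT26. Igf2bp3 had 28.2, 0.460 and 7.55 TPM (LL2 minus CT26 -1.76 ± 0.157, adjusted p = 3.2e-08; CT26NYESO1 minus CT26 -4.33 ± 0.157, adjusted p = 4.28e-13). Igf2bp1 had 20.8, 8.22 and 6.12 TPM (LL2 minus CT26 -1.61 ± 0.151, adjusted p = 5.82e-08).

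Of 18 pluripotency genes around Sox2, 3 were tested and 15 did not pass the filter. Pou5f1 (Oct4) was listed at 0 in all 18 libraries and Nanog had a group mean of at most 0.0137 TPM, so the Sox2 level in CT26NYESO1 stood without these 2 genes. The whole list summed to 3.55 to 4.74 TPM in CT26 Ctrl, 4.13 to 4.79 in CT26NYESO1 Ctrl and 18.2 to 24.0 in LL2 Ctrl. Dppa4 had 6.68 TPM in LL2 Ctrl, 0.201 in CT26 Ctrl and 0.0706 in CT26NYESO1 Ctrl. In the other 2 tested genes the test called a higher level in LL2 than in CT26. Lefty1, a secreted inhibitor of Nodal, differed by 1.94 ± 0.203 (adjusted p = 2.25e-07), and Tbx3, a T-box factor, by 1.47 ± 0.174 (adjusted p = 1.06e-06). In CT26NYESO1 against CT26, 1 of the 3 tested genes was higher and 1 lower. There the log2 difference was 1.11 for Lefty1 and -0.69 for Tbx3. In LL2 against CT26NYESO1, 3 were higher and 0 lower, Dppa4 included.

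Of 12 neural progenitor genes 6 were tested, with 4 higher and 2 lower in LL2 than in CT26, 3 higher and 3 lower in CT26NYESO1 than in CT26, and 2 higher and 4 lower in LL2 than in CT26NYESO1. Pax6, a homeobox factor of eye and forebrain, had 0.146 TPM in CT26 Ctrl, 16.5 in CT26NYESO1 Ctrl and 6.52 in LL2 Ctrl (CT26NYESO1 minus CT26 3.94 ± 0.136, adjusted p = 2.08e-13; LL2 minus CT26 2.72 ± 0.136, adjusted p = 1.76e-11). Like Sox2, it was highest in CT26NYESO1, but unlike Sox2 it was also present in LL2. Msi1, an RNA-binding protein of neural stem cells, was lower in LL2 than in CT26 by -2.58 ± 0.123 (adjusted p = 9.01e-12). Ncam1, an adhesion molecule, had 5.89 TPM in LL2 Ctrl, 0.300 in CT26 Ctrl and 0.643 in CT26NYESO1 Ctrl. Schwann cells also express Sox and neural genes. Their 8 markers summed to 47.9 to 64.2 TPM in CT26 Ctrl, 41.0 to 46.8 in CT26NYESO1 Ctrl and 49.2 to 63.2 in LL2 Ctrl, with Pmp22 and Mbp the most abundant, while Sox10 and Cdh19 had group means of at most 0.116 and 0.0262 TPM. The part of these cells in the neural genes was not tested.

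Of 11 cartilage genes known to lie downstream of Sox9, 3 were tested, and Col9a3 and Col11a2 did not follow the order of Sox9. Both were lower in LL2 and in CT26NYESO1 than in CT26, where Sox9 was lowest. Chad reached 1 TPM in CT26 alone, so its lower level elsewhere was fixed by the filter. In LL2 against CT26NYESO1 0 of the 3 were higher and 1 lower. In LL2 against CT26 the differences were -1.33 ± 0.158 for the collagen gene Col9a3 (adjusted p = 1.05e-06) and -0.72 ± 0.136 for Col11a2 (adjusted p = 0.000172), and Chad had 1.37 TPM in CT26 Ctrl and 0.292 in LL2 Ctrl. In LL2 against CT26NYESO1 Col9a3 differed by -0.43 ± 0.158 (adjusted p = 0.0246) and Col11a2 by 0.22 ± 0.136 (adjusted p = 0.167). The summed level of 9 fibroblast marker genes was also lower outside CT26. It was 6240 to 9360 TPM in CT26 Ctrl, 1310 to 1710 in CT26NYESO1 Ctrl and 3110 to 3790 in LL2 Ctrl. Singly, 3 of the 9 were called higher and 6 lower in LL2 than in CT26. In CT26NYESO1 against CT26, 1 was called higher and 7 lower. The part of fibroblasts in the cartilage genes was not tested. Of 9 regulators of epithelial-mesenchymal transition, 2 were higher and 5 lower in LL2 than in CT26, the same counts held in CT26NYESO1 against CT26, and 3 were higher and 3 lower in LL2 than in CT26NYESO1. Snai1, a repressor of epithelial genes, had 97.7, 16.4 and 30.1 TPM (LL2 minus CT26 -1.64 ± 0.127, adjusted p = 5.54e-09). Snai2 was lower by -1.58 ± 0.11 (adjusted p = 1.3e-09) and the matrix protein Fn1 by -1.44 ± 0.146 (adjusted p = 2.8e-07).

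The second question of the design is whether OK-432 changed these genes within a tumour type, 24 hours after it was given. No member passed the test. In limma with Benjamini-Hochberg adjustment over all genes, 0 of 8 were called in CT26 (0% of all tested genes), 0 of 8 in CT26NYESO1 (0.666%) and 0 of 8 in LL2 (0.0178%). At an unadjusted p under 0.05 there were 1, 2 and 1 of the 8, and 689, 2727 and 884 of all genes. The average effect over the 3 types called 0 of 8 (0.172% of all genes). Under an unadjusted 0.05 the average had 2 of the 8, and 1735 of all genes. The median log2 difference of the 8 was 0.03, 0.08 and 0.12 in CT26, CT26NYESO1 and LL2, beside 0.000367, -0.0216 and -0.00992 over all tested genes. The number of all genes called in CT26NYESO1, 112, ranged from 4 without replicate 3 of its OK432 group to 673 without replicate 2 of that group, while the count for the 8 genes was 0 in each case.

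Sox4 in CT26NYESO1 came closest to the threshold. All 3 OK432 libraries (22.9, 25.2 and 28.9 TPM) were above the 3 Ctrl libraries (17.9, 20.8 and 16.1 TPM), a log2 difference of 0.47 ± 0.138 with a 95% interval of 0.18 to 0.76, unadjusted p = 0.00358 and limma adjusted p = 0.111. It was the only one of the 8 genes whose groups did not overlap in CT26NYESO1, where 17% of all tested genes did not overlap. The differences of Sox4 in CT26 and LL2 were 0.18 and 0.13, with overlapping groups. Leaving out 1 library of 18 gave 0.02 (without replicate 3 of CT26 Ctrl) to 0.26 in CT26 and 0.06 (without replicate 3 of LL2 OK432) to 0.21 in LL2. The Sox4 average over the types was 0.26 ± 0.0797 (adjusted p = 0.302). The neutrophil marker sum was 43.2 to 55.6 TPM in CT26NYESO1 Ctrl. It was 937, 161 and 704 TPM in the 3 CT26NYESO1 OK432 libraries, which in the same order held 22.9, 25.2 and 28.9 TPM of Sox4. The part of neutrophils in the Sox4 values was not tested.

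Sox9 moved in the same direction with a wide error. Its log2 difference was 0.67 ± 0.295 in CT26NYESO1 (adjusted p = 0.273), 0.39 in LL2 and 0.16 in CT26, and the groups overlapped in each type. Leaving out 1 library gave 0.45 to 1.05 in CT26NYESO1, the highest without replicate 1 of its OK432 group, and 0.215 (without replicate 3 of LL2 OK432) to 0.57 in LL2. The average was 0.41 ± 0.17 (adjusted p = 0.425). In CT26NYESO1 the spread lay among the treated libraries, where replicate 1 held 4.15 TPM, inside the Ctrl range, and replicates 2 and 3 held 10.2 and 10.8 TPM, above it.

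Hmga2 in CT26 was the one case of a lower level with a small unadjusted p. The OK432 libraries (164, 195 and 186 TPM) were all below the Ctrl libraries (211, 222 and 259 TPM), a difference of -0.34 ± 0.111 with a 95% interval of -0.58 to -0.11, unadjusted p = 0.00727 and adjusted p = 0.957. In CT26, 2 of the 8 genes had groups that did not overlap, Hmga2 and Klf5, where 9.89% of all tested genes did. Hmga2 differed by 0.04 in CT26NYESO1 and 0.16 in LL2, with overlap, and the tests of the difference between tumour types gave 0.38 ± 0.157 for CT26NYESO1 minus CT26 (adjusted p = 0.531) and 0.50 ± 0.157 for LL2 minus CT26 (adjusted p = 0.963). The skeletal muscle marker sum of the 3 CT26 OK432 libraries was 154, 25.1 and 7.35 TPM, against 6.78 to 7.84 TPM in CT26 Ctrl. In the same order these 3 libraries held 164, 195 and 186 TPM of Hmga2. The part of muscle in the difference was not tested.

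Klf5 in LL2 differed by 0.36 ± 0.154 (unadjusted p = 0.0332, adjusted p = 0.896), and 1 library set that value. Without replicate 3 of the LL2 OK432 group, which held 9.61 TPM, the difference was 0.14. The same library was the highest of its group for 6 of the 8 genes (Sox4, Sox9, Sox11, Klf4, Klf5 and Hmga2), and its skeletal muscle marker sum was 418 TPM. Replicate 1 of CT26 Ctrl was also the highest of its group for 6 of the 8, with a muscle sum of 6.78 TPM. The part of muscle in these values was not tested. Klf5 differed by 0.27 in CT26NYESO1 (adjusted p = 0.405) and by -0.12 in CT26, where its treated libraries were all below its untreated ones by less than the error of the fit.

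The genes that marked a tumour type most sharply did not pass the test either. Sox2 in CT26NYESO1 differed by 0.13 ± 0.199, with an interval of -0.29 to 0.55 (adjusted p = 0.823), and its standard error is that of a fit shared with the groups near 0, so the interval may be too narrow for CT26NYESO1. In LL2, 1 of the 8 genes had groups that did not overlap (9.87% of all tested genes did not), and it was Sox2, whose treated libraries held at most 0.0364 TPM over Ctrl libraries listed at 0. Klf4 differed by -0.14, -0.01 and 0.10 in CT26, CT26NYESO1 and LL2, with standard errors of 0.0986. Sox11 differed by 0.02, 0.01 and -0.06, and Lin28b by 0.05 in CT26 and -0.14 in LL2, and was listed at 0 in both CT26NYESO1 groups. A p over the threshold does not show that the levels were equal.

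**Figure D2:**
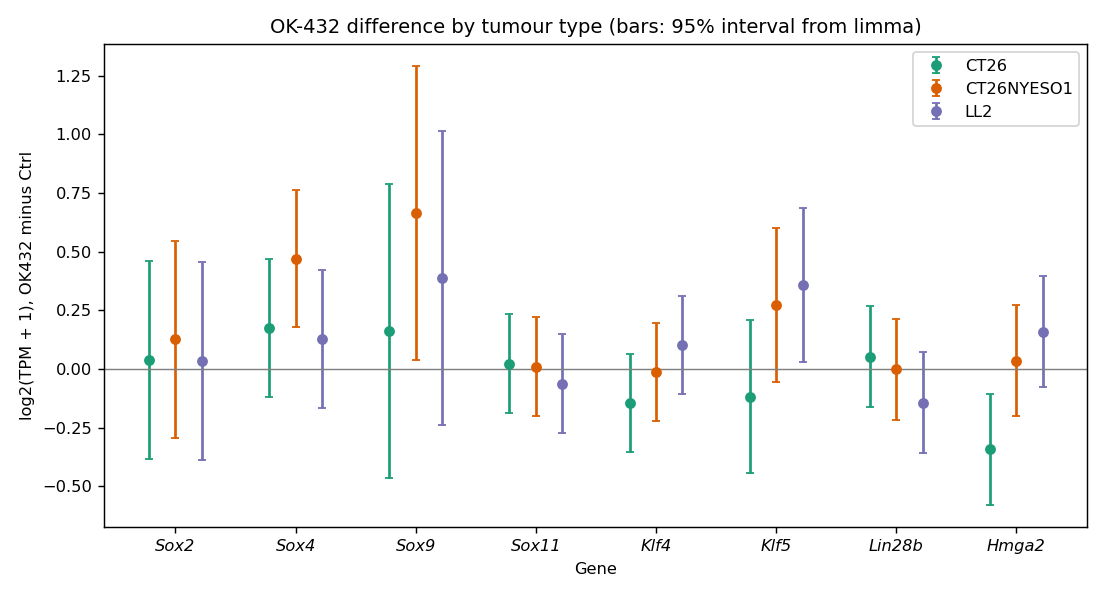
OK432 minus Ctrl difference of log2(TPM + 1) for each of the 8 genes (x axis) in each tumour type, with the 95% interval from limma as bars. Sox4 and Sox9 in CT26NYESO1, Klf5 in LL2 and Hmga2 in CT26 have intervals that leave out 0 before adjustment, and none of the 8 genes passed after adjustment.

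The OK-432 effects of the 8 genes were also compared between tumour types, and none differed past the threshold. The calls were 0 of 8 in CT26NYESO1 minus CT26 (0% of all tested genes), 0 of 8 in LL2 minus CT26 (0.00595%) and 0 of 8 in LL2 minus CT26NYESO1 (0.00595%). At an unadjusted p under 0.05 there were 1, 2 and 0 of the 8, and 1486, 823 and 1481 of all 16816 tested genes. The related lists had no call with OK-432 either. Of their 61 tested genes, 0 were called in CT26, CT26NYESO1 or LL2 by limma. The smallest limma adjusted p was 0.104, for Igf1r in CT26NYESO1. At an unadjusted p under 0.05 there were 3, 12 and 3 of the 61, beside 689, 2727 and 884 of all tested genes. For comparison, Klf4 ranged from 8.09 to 102 TPM over tumour types, and its largest OK-432 difference was -0.14 on the log2 scale.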

How the data were processed

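Per the labels' protocols, RNA of 18 tumour samples was extracted with TRIzol and sequenced from TruSeq stranded mRNA libraries. The authors deposited 1 table of TPM values for 55291 genes. Trim Galore 0.6.5, STAR 2.7.3a, StringTie 2.1.2 and the build mm10 are named in the submitters' processing notes. The annotation, strand setting and filters were not given in the sources used here. Depth cannot be read from TPM, so the precision of each value is known only from its replicates. Groups and replicate numbers came from the sample titles. Values were taken as log2(TPM + 1), which understates differences of low genes. Genes with at least 1 TPM in at least 3 libraries, 16816 in all, entered limma 3.58.1 (R 4.3.3), in 1 fit of 6 group means with trended and robust empirical Bayes, 12 residual degrees of freedom, and Benjamini-Hochberg adjustment over all tested genes, called under 0.05. The procedure was tested on simulated data. The members and lists were chosen with earlier results of these data known. Genes named are the members, up to 3 called genes per list with the largest difference between untreated LL2 and CT26, the tested genes nearest to a member, and those most correlated with it (5 for Sox2, 2 for each other) among genes with a mean of at least 5 TPM; exceptions are marked. Positions and 3′ UTRs are from GENCODE M21 (mm10) and microRNAs from RefSeq. Alternatives were the pseudocount, the filter, 2 rescalings, plain empirical Bayes, separate fits, a replicate block and leaving out each library.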

Additional observations from a re-analysis of the deposited data

How the results depend on the processing

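No member was called with OK-432 (0 of 8 in each tumour type, in the average and in the differences between effects) under any of the 27 alternatives run, or the 26 that the average allows. The smallest adjusted p over the alternatives was 0.0815 for Sox4 and 0.0578 for Sox9 in CT26NYESO1, and 0.624 for Hmga2 in CT26. Related-list calls ranged from 44 to 55 in LL2 against CT26, 42 to 52 in CT26NYESO1 against CT26 and 36 to 45 in LL2 against CT26NYESO1, beside 48, 44 and 41. Some OK-432 differences near 0 changed sign, and the cause was not tested. With a pseudocount of 0.1, Sox2 in CT26 was -0.094 and the Sox11 average 0.022. Klf4 in CT26NYESO1 was 0.013 with median-of-ratios factors and 0.014 with quantile normalization, and Sox11 in CT26 was -0.01 after quantile normalization. Leaving out 1 library gave ranges across 0 in CT26 for Sox2 (-0.155 to 0.136), Sox9 (-0.011 to 0.351) and Lin28b (-0.002 to 0.132), with Sox11 at 0 to 0.05. In CT26NYESO1 the ranges were -0.097 to 0.306 for Sox2, -0.033 to 0.117 for Hmga2 and -0.071 to 0.105 for Klf4. For the average they were -0.008 to 0.126 for Sox2, -0.047 to 0.021 for Klf4 and -0.034 to 0.009 for Sox11. The counts of all tested genes called depended on the setting: 0 to 22 in CT26 (0 as reported), 0 to 673 in CT26NYESO1 (112), 1 to 18 in LL2 (3) and 17 to 141 for the average (29). For the differences between effects they were 0 to 99 for CT26NYESO1 minus CT26 (0), 1 to 16 for LL2 minus CT26 (1) and 1 to 57 for LL2 minus CT26NYESO1 (1). The 0 in CT26NYESO1 came from fitting that tumour type alone, and the 22 and 18 from applying no filter. A filter of 5 TPM removed Sox11 and Lin28b. Where a left-out library leaves a group with 2, the other groups still set the spread.

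Libraries that share a replicate number did not deviate together: of 9 such pairs, 1 correlated above 0.1, and the range was -0.122 to 0.219. With the replicate number as a block, 0 of the 8 genes were called in any tumour type, all genes called numbered 0 in CT26, 93 in CT26NYESO1, 1 in LL2 and 30 for the average, and related-list calls were 49, 45 and 40. Depth is unknown, so what is missed in genes under 1 TPM, such as Sox11 and Lin28b outside LL2, cannot be stated.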
